A study of Mus musculus with 16 samples.

Results

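Brown and beige fat can spend energy without uncoupling protein 1 (UCP1) by running cycles that consume ATP with no net product. In the creatine cycle, creatine kinases load phosphate onto creatine and a phosphatase takes it off again near the mitochondria. In the calcium cycle, a pump fills the endoplasmic reticulum with calcium and a channel lets it back out. The genes described here are 10 genes of these cycles, chosen by name: Ckb, Ckmt1 and Ckmt2 (creatine kinases), Gatm and Gamt (creatine synthesis), Slc6a8 (creatine uptake), Alpl and Phospho1 (phosphatases), Atp2a2 (calcium pump) and Ryr2 (calcium release channel). All 10 were found by symbol among the 38396 rows of the table.

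The 16 libraries came from brown adipose tissue (BAT), inguinal white fat (iWAT) and epididymal white fat (eWAT) of mice aged 12 weeks. HuR-FKO mice carry AdipoQ-Cre, which adiponectin-expressing adipocytes switch on, together with floxed HuR (Elavl1) alleles. Ctrl mice are littermates with the floxed alleles and no Cre, so every animal was HuRf/f. BAT had 2 HuR-FKO and 2 Ctrl libraries, iWAT had 3 and 3, and eWAT had 3 and 3, each from the pooled RNA of 3 mice. A p-value therefore measures the spread between pools. Whole tissue was sequenced, so fewer cells of a type and less RNA per cell cannot be told apart.

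Levels are in FPKM, fragments per kilobase of transcript scaled to the mapped fragments of the library, a unit that takes account of gene length. Elavl1 itself showed no drop with the HuR-FKO label: it averaged 8.58 ± 0.574 FPKM in libraries labelled HuR-FKO, against 7.85 ± 0.695 FPKM in Ctrl libraries in BAT (SD, n = 2 each). In iWAT it averaged 15.25 ± 1.31 FPKM in libraries labelled HuR-FKO and 13.8 ± 1.78 FPKM in Ctrl libraries, and in eWAT 14.2 ± 1.07 FPKM in libraries labelled HuR-FKO and 13.2 ± 0.841 FPKM in Ctrl libraries (SD, n = 3 each). The log2 differences were 0.11, 0.14 and 0.10 in BAT, iWAT and eWAT, with adjusted p in limma of 0.858, 0.822 and 0.883. A gene-level value sums exons in and outside the floxed part, and other cells than adipocytes keep HuR. This value is therefore a weak check of the labels. The adipocyte hormone gene Adipoq was at 482 to 622 FPKM in BAT, 982 to 1507 FPKM in iWAT and 2153 to 2896 FPKM in eWAT. Ucp1, the brown fat marker, reached 685.5 to 1165 FPKM in BAT, 8.33 to 182 FPKM in iWAT and at most 0.881 FPKM in eWAT. Depth was estimated at 16.5 to 18.2 megafragments in BAT, 11.6 to 14.6 in iWAT and 9.2 to 13.7 in eWAT.

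Skeletal muscle markers differed strongly between libraries, and Ckmt2 and Atp2a2 are also muscle genes. The summed level of 22 matched muscle markers (of 23 listed) was 2088 and 2151 FPKM in libraries labelled HuR-FKO BAT, against 6339 and 3666 FPKM in Ctrl BAT. In iWAT it was 66.0, 404 and 1041 FPKM in libraries labelled HuR-FKO, against 612, 767 and 4121 FPKM in Ctrl libraries. In eWAT it stayed between 58.3 and 84.7 FPKM, with Xirp2 listed at 0 in 5 of 6 libraries. Lymphoid markers summed to 1.16 to 2.57 FPKM in BAT, 96.05 to 258 FPKM in iWAT and 6.03 to 7.58 FPKM in eWAT, and epithelial markers to 0.192 to 0.565, 1.60 to 3.10 and 31.2 to 70.2 FPKM, in the same depot order. The part of these cells in the depot differences below was not tested.

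The BAT columns also differed in make-up from the white fat columns. Mitochondrially encoded genes took 37.65 to 44.55% of protein-coding FPKM in BAT, 19.7 to 27.35% in iWAT and 12.1 to 16.85% in eWAT. A total of 5 protein-coding genes, 4 of them mitochondrially encoded, were listed at 0 in all 4 BAT libraries and above 20 FPKM in all 12 white fat libraries. Summed over all rows, FPKM came to 7.194e+05 to 7.962e+05 in BAT columns and 3.46e+06 to 1.293e+07 in white fat columns. Over protein-coding rows the sums were 6.314e+05 to 6.768e+05 in BAT and 5.788e+05 to 6.511e+05 in white fat. A difference in how BAT was quantified and the depot itself therefore cannot be told apart.

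The 10 genes fell into a few expression levels, shown per library in the plot of FPKM values. Ckb, Gamt and Atp2a2 were the 3 most abundant members in all 6 eWAT libraries and Atp2a2 was the most abundant in all 4 BAT libraries, in FPKM, while Ckmt1 never passed 1.45 FPKM and Ryr2 never passed 0.0817 FPKM. Ckmt1, the widely expressed mitochondrial creatine kinase, lay between 0.383 and 1.45 FPKM in eWAT and at or below 0.365 FPKM in BAT and iWAT, with 4 of 10 of those libraries listed at 0. In GRCm38 (GENCODE vM21) the protein-coding member genes lie at chr12:111669361-111672338 (Ckb), chr2:121357714-121363737 (Ckmt1), chr13:91853387-91876885 (Ckmt2), chr2:122594467-122611303 (Gatm), chr10:80258151-80261012 (Gamt), chrX:73673150-73682502 (Slc6a8), chr4:137741733-137796384 (Alpl), chr11:95824499-95832140 (Phospho1), chr5:122453513-122502225 (Atp2a2) and chr13:11553102-12106945 (Ryr2). Neither Ckmt1 nor Ryr2 reached the mean of 1 FPKM that a gene needed in a compared group, so 8 members could be tested in BAT and iWAT. In eWAT there were 7, since Ckmt2 was listed at 0 in all 6 eWAT libraries.

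**Figure D1:**
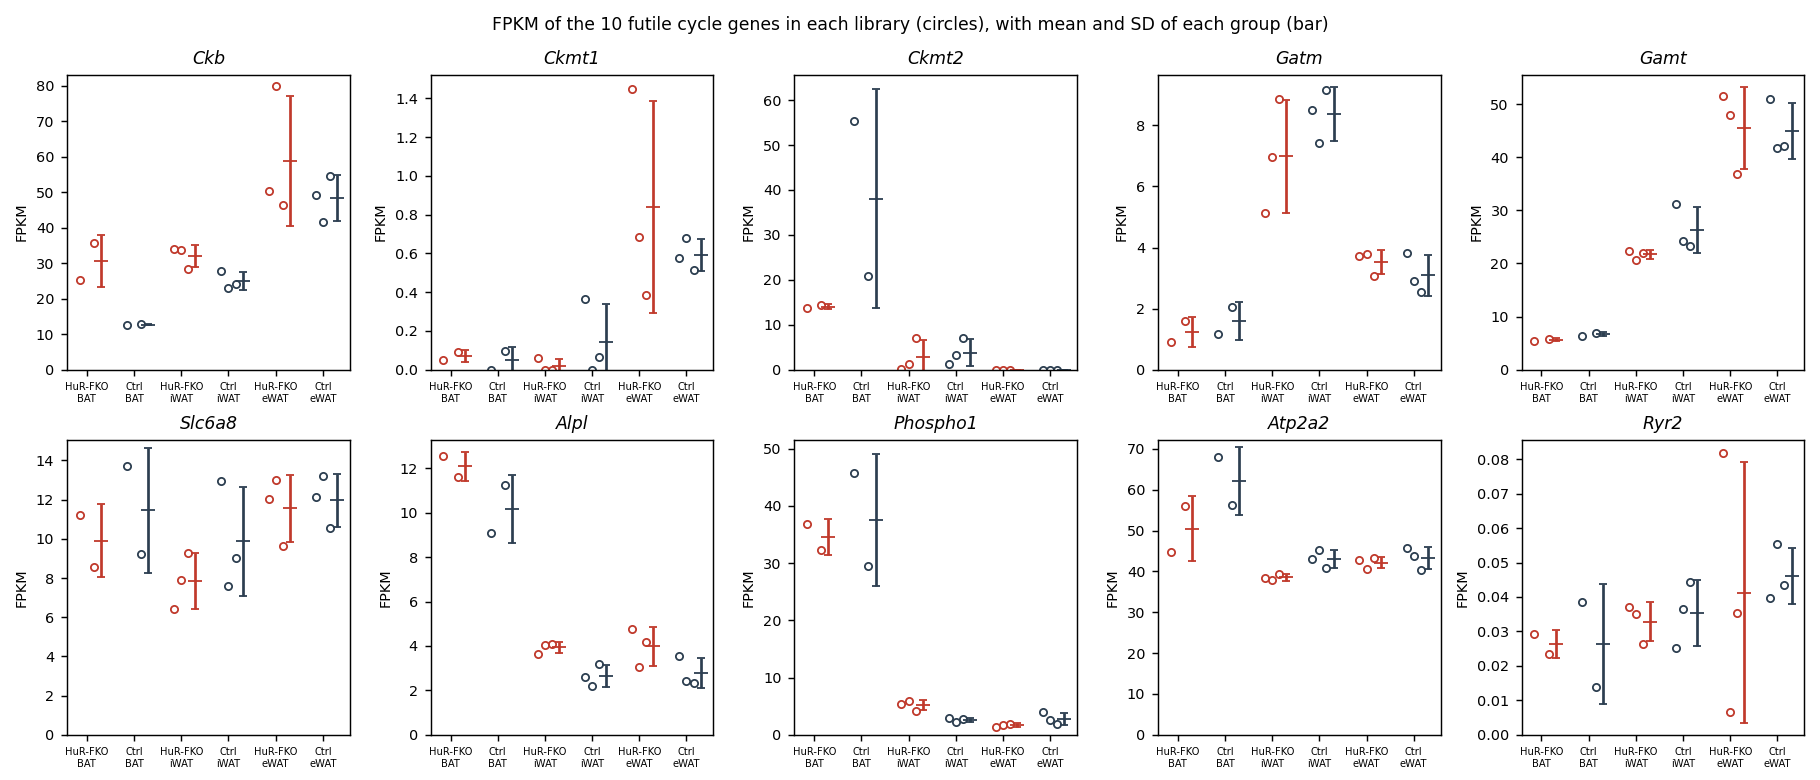
FPKM (vertical axis) of each of the 10 genes in every library (circles), in libraries labelled HuR-FKO (red) and Ctrl (dark) of BAT, iWAT and eWAT, with group mean and SD (bars). Ckb was lowest in Ctrl BAT (12.6 and 12.7 FPKM), Phospho1 and Alpl were highest in BAT, and Ckmt2 lay at 0 in eWAT.

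The promoters of 3 members are shown, chosen after their values were seen, because these genes had contrasting depot patterns in unscaled FPKM: Ckb (lower in Ctrl BAT than in white fat), Phospho1 (higher in BAT) and Ckmt2 (present in BAT and iWAT, listed at 0 in eWAT). The lower Ckb in Ctrl BAT than in Ctrl iWAT did not pass with the median-ratio scaling of libraries given below. Each is the 250 bases before the annotated start, 5′ to 3′ on the gene's strand, from RefSeq (GRCm38.p6). The Ckb window is chr12:111672339-111672588 (minus strand), the Phospho1 window chr11:95824250-95824499 (plus strand) and the Ckmt2 window chr13:91876886-91877135 (minus strand). Capitals mark matches on either strand to the TATA box motif TATAAA, the motif CCAAT, the E-box motifs CAGCTG and also CACGTG, the letters TGACGT of the cyclic AMP response element and the letters AAGGTCA bound by estrogen-related receptors, and no match shown overlaps another.
Ckb: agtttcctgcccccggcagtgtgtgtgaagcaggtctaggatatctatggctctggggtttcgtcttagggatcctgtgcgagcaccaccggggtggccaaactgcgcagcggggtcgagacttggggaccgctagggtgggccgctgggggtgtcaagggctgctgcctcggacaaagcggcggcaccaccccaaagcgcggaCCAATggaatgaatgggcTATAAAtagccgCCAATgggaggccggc
Phospho1: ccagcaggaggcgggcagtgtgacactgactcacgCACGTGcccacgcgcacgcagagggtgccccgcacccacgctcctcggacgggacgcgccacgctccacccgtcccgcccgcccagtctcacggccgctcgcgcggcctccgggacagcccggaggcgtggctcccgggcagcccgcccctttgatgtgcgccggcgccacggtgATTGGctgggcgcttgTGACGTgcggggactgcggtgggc
Ckmt2: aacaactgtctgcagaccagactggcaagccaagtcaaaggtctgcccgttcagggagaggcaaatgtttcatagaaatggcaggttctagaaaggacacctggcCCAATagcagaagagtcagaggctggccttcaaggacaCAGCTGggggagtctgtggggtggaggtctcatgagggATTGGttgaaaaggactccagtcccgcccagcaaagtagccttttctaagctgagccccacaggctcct

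The Ckb window held TATAAA from 28 to 23 bases before the start, flanked by CCAAT at 46 to 42 and at 16 to 12 bases before it. Phospho1 held no TATAAA, had a GC content of 75.6% with 34 CpG, and carried CACGTG (215 to 210), CCAAT on the other strand (40 to 36) and TGACGT (24 to 19). Ckmt2 held 2 CpG, 2 matches to CCAAT and 1 to CAGCTG, the core letters of many muscle E-boxes. Of 32851 windows of this length in the table, 12.4% held TATAAA, 33.8% CCAAT, 13% CAGCTG, 6.02% CACGTG, 6.47% TGACGT and 4.08% AAGGTCA, and the median GC content was 52.4%. Such matches describe the letters only. Promoters were matched for 8 of the 10 genes.

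The first question was whether the genotype label went with a change in the cycle genes within a depot. Differences are on the log2(FPKM + 1) scale, HuR-FKO minus Ctrl, tested with limma and adjusted by the Benjamini-Hochberg method over all tested genes, with a threshold of 0.05. No member passed in any depot. In BAT 0 of 8 tested members passed, where 0 of 10944 tested genes (0%) passed in limma. Before adjustment, p was under 0.05 for 316 genes with positive and 739 with negative differences, 2 members among them. In iWAT 0 of 8 passed, against 5 of 12706 genes (0.0394%), with unadjusted p under 0.05 for 470 genes with positive and 702 with negative differences, 3 members among them. In eWAT 0 of 7 passed, against 5 of 12330 genes (0.0406%), with unadjusted p under 0.05 for 473 and 471 genes and no member.

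Ckb, the cytosolic brain-type creatine kinase that in mice also works in the creatine cycle of brown fat, had the smallest p of the members in BAT. It measured 25.3 and 35.7 FPKM in libraries labelled HuR-FKO BAT, against 12.6 and 12.7 FPKM in Ctrl BAT. Both libraries labelled HuR-FKO lay above both Ctrl libraries, and the ratio of means was 2.41. The log2 difference was 1.18 (95% interval 0.70 to 1.67) with an unadjusted p of 0.00118 and an adjusted p of 0.275 in limma over all genes. With the spread of all 16 libraries in 1 fit the adjusted p was 0.0291, and leaving out 1 BAT library in turn gave differences of 0.94 to 1.42 with adjusted p of 0.0897 to 0.683. Each of those fits sets 2 libraries against 1, and the lone library is assumed to vary like the other group.

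In iWAT both groups of Ckb values were also apart, with no overlap. Ckb had 34.0, 33.7 and 28.4 FPKM in libraries labelled HuR-FKO iWAT, against 27.65, 22.9 and 24.2 FPKM in Ctrl iWAT. The log2 difference of 0.35 (0.08 to 0.62) had an adjusted p of 0.434. In eWAT the groups overlapped, at 50.25, 79.8 and 46.3 FPKM in libraries labelled HuR-FKO and 49.1, 41.5 and 54.4 FPKM in Ctrl libraries, with a log2 difference of 0.24 (-0.22 to 0.71) and an adjusted p of 0.834.

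Ckmt2, the mitochondrial creatine kinase of muscle, varied along with the muscle markers, although Ctrl iWAT replicate 3, the highest of iWAT in those markers, was not above HuR-FKO iWAT replicate 3 in Ckmt2. The part of muscle in its values was not tested. In BAT it measured 13.6 and 14.4 FPKM in libraries labelled HuR-FKO, against 55.4 and 20.8 FPKM in Ctrl libraries, a log2 difference of -1.22 (-2.31 to -0.13) with an adjusted p of 0.479. Without Ctrl BAT replicate 1 the difference was -0.54 (adjusted p 0.265), and without Ctrl BAT replicate 2 it was -1.91 (adjusted p 0.01995), each with 1 Ctrl library left, so that the spread came from the libraries labelled HuR-FKO alone. Ctrl BAT replicate 1, the highest in Ckmt2, was also the highest in summed muscle markers. In iWAT it measured 0.186, 1.30 and 7.04 FPKM in libraries labelled HuR-FKO, against 1.13, 3.18 and 6.98 FPKM in Ctrl libraries, and the groups overlapped. Set against Ckm, the cytosolic muscle kinase, Ckmt2 amounted to 9.39 and 8.84 FPKM per 100 FPKM of Ckm in libraries labelled HuR-FKO BAT, against 10.7 and 7.68 in Ctrl BAT. The groups overlapped in this ratio, whereas Ckmt2 alone did not overlap and its mean in Ctrl BAT was 2.72 times that in the libraries labelled HuR-FKO. In iWAT the ratio was less even, at 20.25, 5.12 and 10.9 FPKM per 100 FPKM of Ckm in libraries labelled HuR-FKO, against 2.55, 6.20 and 2.12 in Ctrl libraries, so Ckmt2 did not keep a steady ratio to Ckm. The ratio of 20.25 rests on 0.186 FPKM of Ckmt2, a value near the floor, and the other iWAT ratios ran from 2.12 to 10.9.

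**Figure D2:**
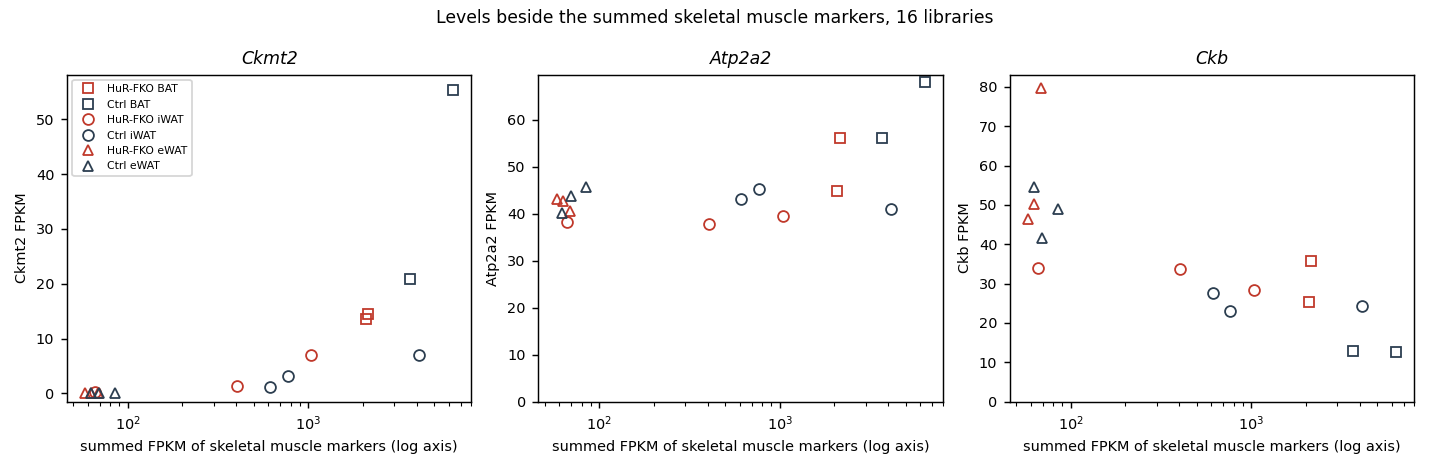
FPKM of Ckmt2, Atp2a2 and Ckb (vertical axes) beside the summed FPKM of skeletal muscle markers (horizontal log axis) in the 16 libraries, with squares for BAT, circles for iWAT and triangles for eWAT, red for libraries labelled HuR-FKO and dark for Ctrl. The 2 libraries highest in muscle markers, Ctrl BAT replicate 1 (6339 FPKM) and Ctrl iWAT replicate 3 (4121 FPKM), had 55.4 and 6.98 FPKM of Ckmt2.

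The genes of creatine supply were not called in any depot. Gatm, which makes the creatine precursor guanidinoacetate, had 0.896 and 1.59 FPKM in libraries labelled HuR-FKO BAT and 1.15 and 2.04 FPKM in Ctrl BAT. In iWAT it had 5.12, 6.98 and 8.85 FPKM in libraries labelled HuR-FKO and 8.51, 7.43 and 9.17 FPKM in Ctrl libraries. The groups overlapped in both depots and in eWAT, and adjusted p was 0.755 to 0.872. Gamt, which methylates that precursor to creatine, lay lower without overlap in BAT, at 5.39 and 5.80 FPKM in libraries labelled HuR-FKO and 6.41 and 6.91 FPKM in Ctrl libraries. It also lay lower without overlap in iWAT, at 22.4, 20.7 and 22.0 FPKM in libraries labelled HuR-FKO and 31.2, 24.2 and 23.3 FPKM in Ctrl libraries. These differences of -0.22 and -0.25 on the log2 scale did not pass, with adjusted p of 0.699 in BAT and 0.618 in iWAT, and without Ctrl iWAT replicate 1 the iWAT difference was -0.12. Slc6a8, the creatine transporter of the plasma membrane, overlapped between genotypes in all 3 depots, with log2 differences of -0.18 in BAT, -0.28 in iWAT and -0.05 in eWAT.

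Phospho1 had the smallest p of the members in iWAT. This enzyme, which cleaves phosphocholine and phosphoethanolamine in mineralizing tissue, measured 5.45, 5.85 and 4.24 FPKM in libraries labelled HuR-FKO iWAT, against 2.91, 2.18 and 2.76 FPKM in Ctrl iWAT. Every library labelled HuR-FKO lay above every Ctrl library, with a ratio of means of 1.98. The log2 difference was 0.77 (0.42 to 1.12) with an unadjusted p of 0.00108 and an adjusted p of 0.253. In eWAT the order was the other way with overlap, at 1.34, 1.75 and 1.94 FPKM in libraries labelled HuR-FKO and 3.97, 2.63 and 1.84 FPKM in Ctrl libraries (log2 difference -0.48, -0.97 to 0.02, adjusted p 0.658). In BAT it had 36.9 and 32.4 FPKM in libraries labelled HuR-FKO and 45.8 and 29.4 FPKM in Ctrl libraries. The iWAT difference exceeded the eWAT difference by 1.25 (0.64 to 1.86) on the log2 scale in the interaction test, with an unadjusted p of 0.00062 and an adjusted p of 0.599. In that interaction 0 of 8 members passed, against 2 of 13237 genes (0.0151%). Unadjusted p in limma was under 0.05 there for 179 genes with positive and 225 with negative values, 1 member among them.

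Alpl, tissue-nonspecific alkaline phosphatase, which in mice removes phosphate from phosphocreatine in brown fat mitochondria, had positive differences in all 3 depots, none of them past the threshold. In iWAT it had 3.64, 4.06 and 4.11 FPKM in libraries labelled HuR-FKO, against 2.61, 2.19 and 3.17 FPKM in Ctrl libraries, with no overlap. In BAT it had 12.55 and 11.6 FPKM in libraries labelled HuR-FKO, against 9.08 and 11.2 FPKM in Ctrl libraries, again with no overlap. In eWAT the values were 4.76, 3.03 and 4.19 FPKM in libraries labelled HuR-FKO and 3.55, 2.44 and 2.35 FPKM in Ctrl libraries, with overlap. The log2 differences were 0.24 in BAT, 0.44 (0.12 to 0.76) in iWAT and 0.40 (-0.02 to 0.82) in eWAT, with adjusted p of 0.706, 0.405 and 0.667. Leaving out 1 BAT library gave 0.096 to 0.38 in BAT.

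Of the calcium cycle members only Atp2a2, the SERCA2 pump, was high enough to test. It had 44.8 and 56.1 FPKM in libraries labelled HuR-FKO BAT, against 68.1 and 56.2 FPKM in Ctrl BAT. In iWAT it had 38.3, 37.9 and 39.45 FPKM in libraries labelled HuR-FKO, against 43.05, 45.2 and 40.9 FPKM in Ctrl libraries. The groups did not overlap in either depot, although the highest library labelled HuR-FKO BAT and the lowest Ctrl BAT library were nearly level, and the log2 differences were -0.30 (-0.73 to 0.14) and -0.16 (-0.36 to 0.05) with adjusted p of 0.658 and 0.671. Leaving out 1 BAT library gave -0.46 to -0.14 in BAT. In eWAT the difference was -0.03 (-0.24 to 0.18). Ryr2, the calcium release channel best known from heart, stayed at 0.00664 to 0.0817 FPKM over all 16 libraries.

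**Figure D3:**
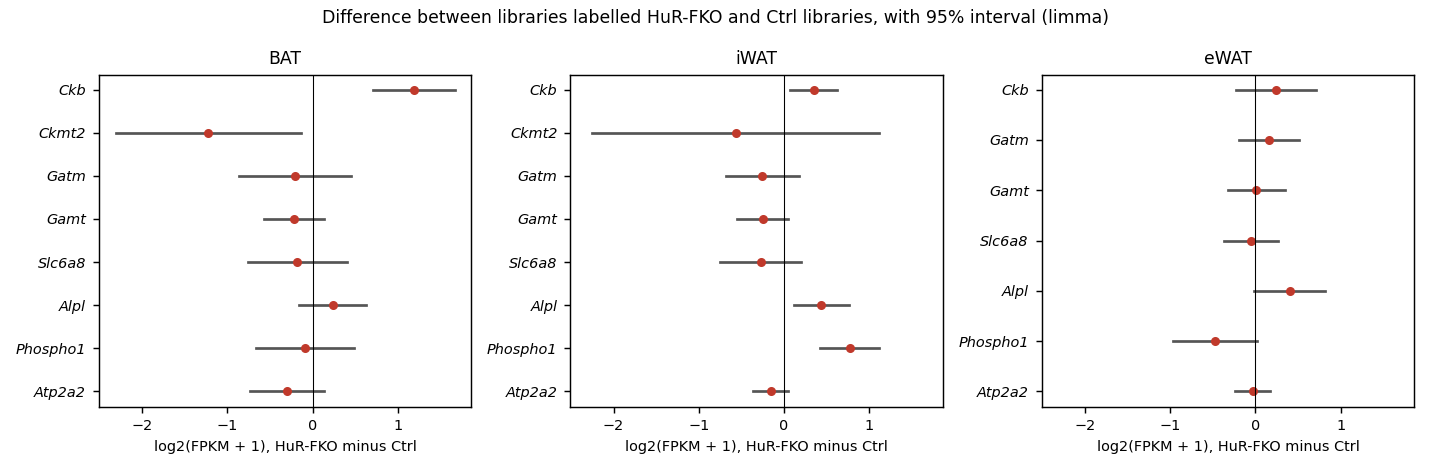
Difference of each tested member on the log2(FPKM + 1) scale, libraries labelled HuR-FKO minus Ctrl (horizontal axes), in BAT, iWAT and eWAT, with 95% intervals from limma. Ckb in BAT (1.18) and Phospho1 in iWAT (0.77) lay farthest above 0, and none passed after adjustment over all genes.

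Counted by overlap, 5 of 8 tested members had libraries of both groups that did not overlap in BAT, against 41.4% of all tested genes: Ckb and Alpl higher, and Ckmt2, Gamt and Atp2a2 lower in libraries labelled HuR-FKO. In iWAT there were also 5 of 8, against 14.5% of all tested genes: Ckb, Alpl and Phospho1 higher, and Gamt and Atp2a2 lower. In eWAT there were 0 of 7, against 13.2%. The median difference of the tested members was -0.19 in BAT, -0.20 in iWAT and 0.01 in eWAT, beside -0.05, -0.04 and -0.01 over all tested genes. The muscle marker sum was lower in both libraries labelled HuR-FKO BAT than in both Ctrl BAT libraries, and its part in the BAT counts was not tested. Without Ctrl iWAT replicate 3, the iWAT library highest in muscle markers, the iWAT count was 5 of 8, against 28.1% of all tested genes at 3 against 2 libraries.

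The other genes of the cycles were read from lists. Of 10 further creatine cycle genes tested in BAT, 11 in iWAT and 10 in eWAT, none passed in limma, and the smallest p belonged to Ckm in BAT (log2 difference -1.28, adjusted p 0.361) and to Slc16a12, of the monocarboxylate transporter family, in iWAT (0.50, adjusted p 0.405). Of 26, 27 and 22 further calcium genes none passed, with Casq1 (-1.28) and Sln (-1.56), both muscle reticulum genes, at the smallest p in BAT and adjusted p of 0.322 for each. Canx, a reticulum chaperone, led in iWAT (-0.26, adjusted p 0.552) and Jph1 in eWAT (0.28, adjusted p 0.747). Of 6, 8 and 7 genes of mineral and phosphate handling none passed, with Entpd1, an ectonucleotidase, at -0.71 in BAT and 0.41 in eWAT, and Spp1 (osteopontin) at 0.80 in iWAT. The skeletal muscle markers had medians of -1.20 in BAT (22 of 22 negative) and -1.72 in iWAT (20 of 22 negative), with none past the threshold. Of the thermogenic genes 1 of 16 passed in iWAT, the fatty acid elongase Elovl3, higher by 2.44 with an adjusted p of 0.0188 (0.123 with no minimum FPKM, 0.102 with a replicate block and up to 0.135 when 1 library was left out), and none of 17 in BAT or of 11 in eWAT. Ucp1 in iWAT had 139, 182 and 101 FPKM in libraries labelled HuR-FKO, against 25.3, 8.33 and 21.65 FPKM in Ctrl libraries, with no overlap.

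The other genotype-by-depot tests also called no member. For BAT against iWAT 0 of 8 passed, against 1 of 13237 genes (0.00755%). Unadjusted p in limma was under 0.05 there for 240 genes with positive and 401 with negative values, 2 members among them. For BAT against eWAT 0 of 8 passed, against 0 of 13237 (0%). Ckb had interaction differences of 0.84 (0.22 to 1.45) for BAT over iWAT and 0.94 (0.32 to 1.56) for BAT over eWAT, with adjusted p of 0.957 and 0.610 in limma. For BAT against eWAT, unadjusted p was under 0.05 for 209 genes with positive and 502 with negative values, 1 member among them.

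The second question was how the cycles differ between depots, asked once in the libraries labelled HuR-FKO and once in Ctrl. Most genes differed. For BAT against iWAT 76.9% of 13017 genes passed in the libraries labelled HuR-FKO and 74.5% of 13054 in Ctrl, for BAT against eWAT 77.7% in the libraries labelled HuR-FKO and 74.2% in Ctrl, and for iWAT against eWAT 29.9% in the libraries labelled HuR-FKO and 28.1% in Ctrl. The median difference of all tested genes was -0.70 against iWAT and -0.72 against eWAT in the libraries labelled HuR-FKO, and -0.69 and -0.66 in Ctrl. Of the genes called for BAT against iWAT, 11.2% were higher in BAT in the libraries labelled HuR-FKO and 11.9% in Ctrl, and after median-ratio scaling of the libraries 49.7% in the libraries labelled HuR-FKO and 48.3% in Ctrl were. BAT differences of the members are therefore given with both scalings.

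In BAT against iWAT, 6 of 8 tested members passed in the libraries labelled HuR-FKO (4 higher, 2 lower) and 7 of 8 in Ctrl (4 higher, 3 lower), which is close to the share of all genes. With median-ratio scaling 8 of 8 passed in the libraries labelled HuR-FKO (6 higher, 2 lower) and 7 of 8 in Ctrl (5 higher, 2 lower). Over all genes, 7550 of 13017 passed with this scaling in the libraries labelled HuR-FKO and 7465 of 13054 in Ctrl. Against eWAT the counts leave out Ckmt2, which was listed at 0 there. For BAT they were 5 of 7 in the libraries labelled HuR-FKO (2 higher, 3 lower) and 6 of 7 in Ctrl (3 higher, 3 lower), and with median-ratio scaling 5 of 7 in the libraries labelled HuR-FKO (4 higher, 1 lower) and 6 of 7 in Ctrl (4 higher, 2 lower). The scaled counts over all genes were 7172 of 13017 in the libraries labelled HuR-FKO and 6928 of 13054 in Ctrl. For iWAT against eWAT 5 of 7 passed in the libraries labelled HuR-FKO (2 higher, 3 lower) and 3 of 7 in Ctrl (1 higher, 2 lower).

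Phospho1 had the largest depot difference of the tested members with a value in all depots. It lay at 29.4 to 45.8 FPKM in BAT, at 2.18 to 5.85 FPKM in iWAT and at 1.34 to 3.97 FPKM in eWAT over both genotypes. BAT exceeded iWAT by 2.53 ± 0.16 (SE) in the libraries labelled HuR-FKO and by 3.39 ± 0.25 in Ctrl, and exceeded eWAT by 3.74 ± 0.16 in the libraries labelled HuR-FKO and 3.35 ± 0.25 in Ctrl. The adjusted p in limma was at most 5.8e-06. Between the white depots it was higher in iWAT in the libraries labelled HuR-FKO (1.20 ± 0.14, adjusted p 0.000456), whereas in Ctrl the difference was -0.04 (-0.56 to 0.47, adjusted p 0.907). This contrast of genotypes is the interaction given above, which did not pass.

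Alpl followed Phospho1 into BAT at a lower level. It lay at 9.08 to 12.55 FPKM in BAT, 2.19 to 4.11 FPKM in iWAT and 2.35 to 4.76 FPKM in eWAT. BAT was higher than iWAT by 1.41 ± 0.16 in the libraries labelled HuR-FKO and by 1.61 ± 0.19 in Ctrl, and higher than eWAT by 1.40 ± 0.16 in the libraries labelled HuR-FKO and 1.57 ± 0.19 in Ctrl, with adjusted p of at most 7.28e-05. The white depots did not differ beyond their spread, with log2 differences of -0.0032 (-0.33 to 0.32) in the libraries labelled HuR-FKO and -0.04 (-0.42 to 0.34) in Ctrl. With median-ratio scaling both phosphatases were farther above white fat, Phospho1 by 3.35 to 4.52 and Alpl by 2.19 to 2.33 on the log2 scale.

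Creatine synthesis ran the other way. Gamt lay at 5.39 to 6.91 FPKM in BAT, 20.7 to 31.2 FPKM in iWAT and 36.85 to 51.7 FPKM in eWAT, and the 3 depots did not overlap. BAT differed from iWAT by -1.78 ± 0.14 in the libraries labelled HuR-FKO and -1.82 ± 0.15 in Ctrl, and from eWAT by -2.80 ± 0.14 in the libraries labelled HuR-FKO and -2.58 ± 0.15 in Ctrl. iWAT differed from eWAT by -1.02 ± 0.13 in the libraries labelled HuR-FKO and -0.76 ± 0.14 in Ctrl, and all 6 differences passed. With median-ratio scaling Gamt in BAT differed from iWAT by -1.02 in the libraries labelled HuR-FKO and -1.07 in Ctrl, and from eWAT by -2.01 in the libraries labelled HuR-FKO and -1.84 in Ctrl. Gatm peaked in iWAT, at 5.12 to 9.17 FPKM, against 0.896 to 2.04 FPKM in BAT and 2.54 to 3.82 FPKM in eWAT. iWAT exceeded eWAT by 0.80 ± 0.19 in the libraries labelled HuR-FKO (adjusted p 0.0150) and by 1.20 ± 0.18 in Ctrl (adjusted p 0.00119), while BAT differed from iWAT by -1.82 ± 0.22 in the libraries labelled HuR-FKO and -1.87 ± 0.20 in Ctrl. With median-ratio scaling the difference from iWAT was -1.26 in the libraries labelled HuR-FKO and -1.28 in Ctrl. The lower Gatm in BAT than in eWAT passed without scaling (-1.03 in the libraries labelled HuR-FKO and -0.66 in Ctrl) and did not pass with it (-0.46 in the libraries labelled HuR-FKO and -0.12 in Ctrl), nor in Ctrl without Ctrl BAT replicate 1 (-0.41, adjusted p 0.116). Without HuR-FKO iWAT replicate 2 the call of Gatm for iWAT against eWAT in the libraries labelled HuR-FKO was lost (adjusted p 0.0534).

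Slc6a8 overlapped between all depots, at 8.58 to 13.7 FPKM in BAT, 6.43 to 13.0 FPKM in iWAT and 9.65 to 13.2 FPKM in eWAT. It passed only for iWAT against eWAT in the libraries labelled HuR-FKO (-0.51, adjusted p 0.0447), a call lost under other settings of the fit (adjusted p 0.0510 to 0.0743) and without replicate 1 or 2 of HuR-FKO iWAT or of HuR-FKO eWAT (adjusted p 0.108 to 0.140). Under median-ratio scaling, Slc6a8 was higher in BAT than in iWAT by 1.09 in the libraries labelled HuR-FKO and 0.97 in Ctrl, and higher than in eWAT by 0.61 in the libraries labelled HuR-FKO and 0.68 in Ctrl, with adjusted p of 0.000839 to 0.0348. The direction against eWAT therefore turned with the scaling.

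Among the kinases, Ckb was highest in eWAT, where it lay at 41.5 to 79.8 FPKM, against 22.9 to 34.0 FPKM in iWAT. iWAT differed from eWAT by -0.82 ± 0.21 in the libraries labelled HuR-FKO (adjusted p 0.0174) and -0.92 ± 0.13 in Ctrl (adjusted p 0.000846). Ctrl BAT differed from Ctrl iWAT by -0.92 ± 0.14 (adjusted p 0.000292) and from Ctrl eWAT by -1.84 ± 0.14, whereas HuR-FKO BAT differed from HuR-FKO iWAT by -0.08 (-0.61 to 0.44, adjusted p 0.758). With median-ratio scaling the difference from iWAT was 0.755 (adjusted p 0.0156) in the libraries labelled HuR-FKO and -0.14 (adjusted p 0.422) in Ctrl, so its direction depends on scaling and label. HuR-FKO BAT differed from HuR-FKO eWAT by -0.90 (adjusted p 0.00602), and by -0.66 with an adjusted p of 0.0650 without HuR-FKO BAT replicate 1. With median-ratio scaling the difference from eWAT was -0.04 in the libraries labelled HuR-FKO and -1.07 in Ctrl.

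**Figure D4:**
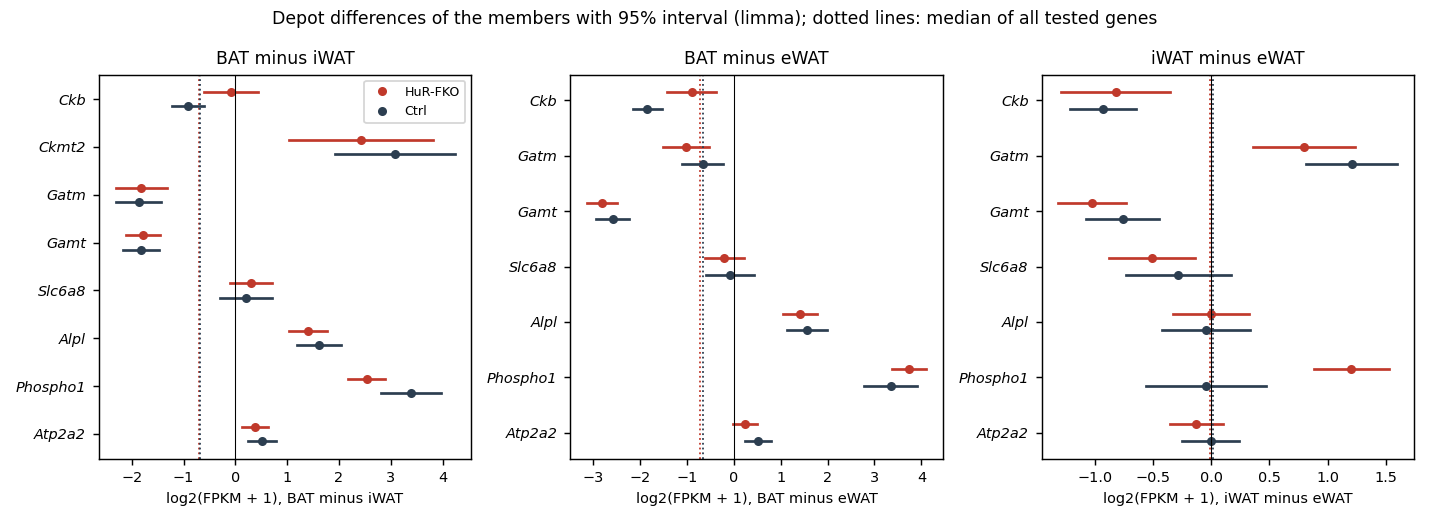
Depot differences of the tested members on the log2(FPKM + 1) scale (horizontal axes) for BAT minus iWAT, BAT minus eWAT and iWAT minus eWAT, in libraries labelled HuR-FKO (red) and Ctrl (dark), with 95% intervals from limma and the median of all tested genes (dotted). Phospho1 and Alpl lay right of the dotted lines in both BAT panels, Gamt lay left of them, and Ckmt2 is left out where eWAT was listed at 0.

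Ckmt2 was higher in BAT than in iWAT by 2.42 ± 0.62 in the libraries labelled HuR-FKO (adjusted p 0.00576) and by 3.08 ± 0.51 in Ctrl (adjusted p 0.000484). With median-ratio scaling these differences were 3.15 in the libraries labelled HuR-FKO and 3.83 in Ctrl. No fold or test of its level is given here against eWAT, where every library listed it at 0. Its BAT level stood beside muscle marker sums of 2088 to 6339 FPKM, and the part of muscle in it was not tested. Within the iWAT libraries labelled HuR-FKO it was 0.186 FPKM in replicate 1, with a muscle sum of 66.0 FPKM, and 7.04 FPKM in replicate 3, with 1041 FPKM.

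Atp2a2 lay at 44.8 to 68.1 FPKM in BAT, 37.9 to 45.2 FPKM in iWAT and 40.2 to 45.7 FPKM in eWAT. BAT exceeded iWAT by 0.37 ± 0.11 in the libraries labelled HuR-FKO (adjusted p 0.0129) and by 0.51 ± 0.12 in Ctrl (adjusted p 0.00399). BAT exceeded eWAT in Ctrl (0.51 ± 0.12, adjusted p 0.00432), and in the libraries labelled HuR-FKO the difference was 0.24 (-0.01 to 0.50, adjusted p 0.0683). The white depots differed by -0.13 (-0.35 to 0.10) in the libraries labelled HuR-FKO and -0.01 (-0.25 to 0.24) in Ctrl, and with median-ratio scaling BAT was higher in all 4 comparisons, by 1.11 to 1.33. Without HuR-FKO BAT replicate 2 the difference from iWAT was 0.21 with an adjusted p of 0.149, and without HuR-FKO BAT replicate 1 that from eWAT was 0.40 with an adjusted p of 0.0184.

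Shares within a family do not depend on the scaling of a library. They were compared between depots over both genotypes (4 BAT, 6 iWAT and 6 eWAT libraries) with a two-sided exact permutation test, adjusted over 12 tests. The 12 include the tests of the Ckmt2 share against eWAT, whose outcome was fixed in advance. Keeping them makes the adjusted p of the Ckb, Atp2a2 and Ryr2 shares smaller than without them. Ckb made up 9.21 ± 7.13% of creatine kinase FPKM (Ckb, Ckm, Ckmt1 and Ckmt2) in BAT, 42.45 ± 30.9% in iWAT and 98.3 ± 0.659% in eWAT (mean ± SD). The exact adjusted p was 0.00952 for BAT against eWAT, 0.00866 for iWAT against eWAT and 0.0629 for BAT against iWAT, and the last was 0.0286 without Ctrl iWAT replicate 3. Within iWAT the Ckb share was 96.7, 55.7 and 28.3% in libraries labelled HuR-FKO and 37.6, 29.6 and 6.72% in Ctrl libraries, the highest where the muscle sum was lowest and the lowest where it was highest. Ckm counts both in that muscle sum and in the creatine kinase total, so these measures are not independent. In BAT it was 13.8 and 16.7% in libraries labelled HuR-FKO, against 2.16 and 4.19% in Ctrl libraries.

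Ckmt2 was 99.6 ± 0.263% of mitochondrial creatine kinase in BAT and 91.7 ± 12.5% in iWAT, and 0% in all 6 eWAT libraries, where Ckmt1 alone was listed. The exact adjusted p was 0.376 for BAT against iWAT. Against eWAT no p is given, since the 0 in all 6 eWAT libraries fixed full separation in advance. Ckmt1 was at most 1.45 FPKM in eWAT, so the eWAT shares rest on low values. Atp2a2 was 15.9 ± 5.01% of Atp2a FPKM in BAT, 34.5 ± 15.15% in iWAT and 72.5 ± 2.07% in eWAT, beside Atp2a1, the SERCA1 pump of fast muscle, and Atp2a3, the SERCA3 pump, with exact adjusted p of 0.00952, 0.00866 and 0.0629 for the same pairs as Ckb, and 0.0212 for BAT against iWAT without Ctrl iWAT replicate 3. Atp2a1 reached 144 to 458 FPKM in BAT, 0.933 to 266 FPKM in iWAT and at most 1.78 FPKM in eWAT. Ryr2 was 0.527 ± 0.282% of Ryr FPKM in BAT, 3.27 ± 3.49% in iWAT and 15.1 ± 7.25% in eWAT, with exact adjusted p of 0.0214 for BAT against eWAT, 0.0111 for iWAT against eWAT and 0.109 for BAT against iWAT (0.0433 without Ctrl iWAT replicate 3). The level of Ryr2 averaged only 0.0263 FPKM in Ctrl BAT and 0.0461 FPKM in Ctrl eWAT. In libraries labelled HuR-FKO these means were 0.0264 and 0.0413 FPKM, so the Ryr2 share rests on values near the floor. Ryr1, the channel of skeletal muscle, lay at 3.27 to 9.65 FPKM in BAT, 0.132 to 6.54 FPKM in iWAT and 0.0613 to 0.268 FPKM in eWAT. Atp2a1 and Ryr1 count both in the muscle sum and in these family totals, so the Atp2a2 and Ryr2 shares are not independent of that sum. The lower Atp2a2 share in BAT than in eWAT stood beside higher mean levels of Atp2a2 in BAT. These were 50.4 against 42.2 FPKM in the libraries labelled HuR-FKO and 62.1 against 43.2 FPKM in Ctrl.

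**Figure D5:**
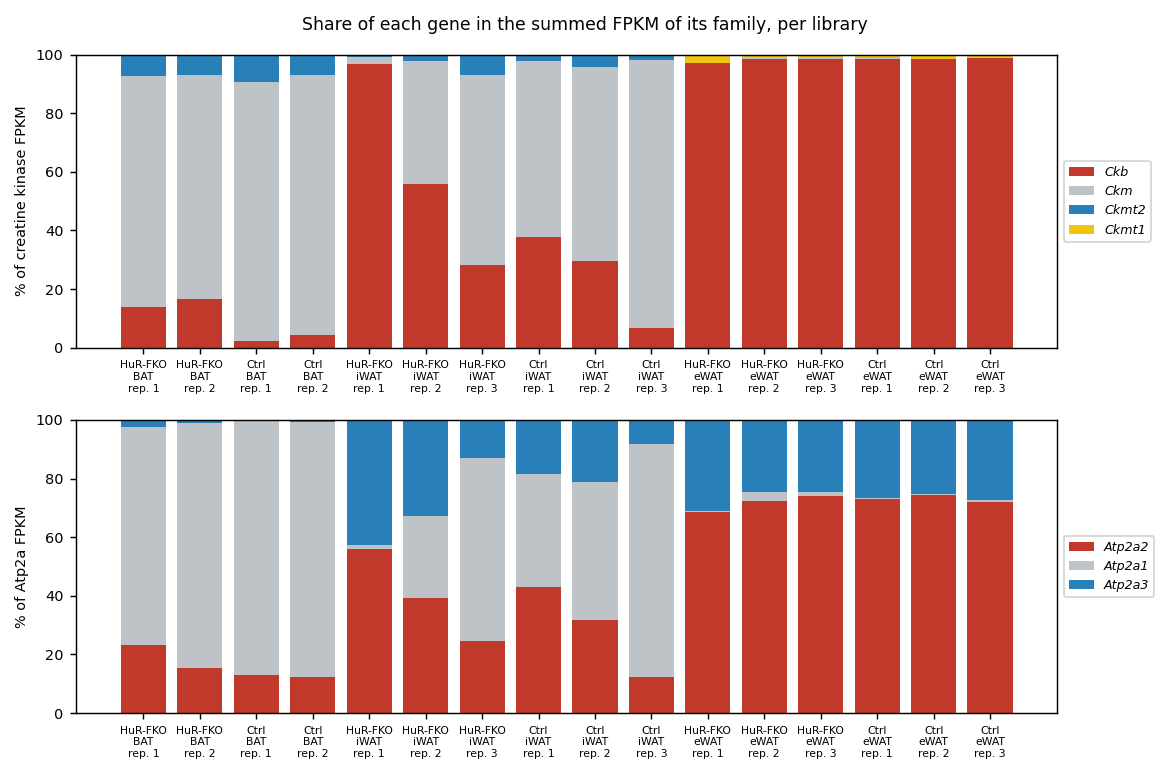
Share of each gene (vertical axes, %) in the summed FPKM of creatine kinases (top) and of Atp2a pumps (bottom) in each of the 16 libraries (horizontal axis). Ckb took 28.3 to 96.7% in libraries labelled HuR-FKO iWAT and 6.72 to 37.6% in Ctrl iWAT, and 98.3% on average in eWAT.

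The other lists were read for depot differences, and they hold genes of muscle, among them Ckm, Atp2a1, Ryr1 and Casq1 of the muscle markers. With median-ratio scaling 22 of 22 tested muscle markers were higher in BAT than in iWAT in each genotype. Their medians were 3.33 in the libraries labelled HuR-FKO and 2.73 in Ctrl, and the part of muscle in the list counts was not tested. Of 11 further creatine genes, 7 were higher and 1 lower in BAT than in iWAT in each genotype, with a median of 0.41 in the libraries labelled HuR-FKO and 0.59 in Ctrl, beside the medians of all genes given above. With median-ratio scaling 9 were higher and 1 lower in each genotype. The higher ones, with values before scaling, included Ckm (3.37 in the libraries labelled HuR-FKO and 2.02 in Ctrl) and Ak1, an adenylate kinase (1.35 in the libraries labelled HuR-FKO and 1.42 in Ctrl). Slc16a12 was lower (-1.63 in the libraries labelled HuR-FKO and -1.07 in Ctrl). Of 29 tested calcium genes, 10 were higher and 15 lower in the libraries labelled HuR-FKO, and 11 and 15 in Ctrl, with medians of -0.54 in the libraries labelled HuR-FKO and -0.30 in Ctrl. With median-ratio scaling the balance turned, with 14 higher and 10 lower in the libraries labelled HuR-FKO (median 0.27) and 15 higher and 9 lower in Ctrl (median 0.47). Sln, the SERCA inhibitor sarcolipin (2.19 in the libraries labelled HuR-FKO and 3.34 in Ctrl), and Atp2a1 (3.59 in the libraries labelled HuR-FKO and 2.27 in Ctrl) were higher in BAT and Atp2a3 lower (-2.39 in the libraries labelled HuR-FKO and -2.62 in Ctrl). Sln was listed at 2.66 and 5.47 FPKM in libraries labelled HuR-FKO BAT and at 11.5 and 15.5 FPKM in Ctrl BAT, and it was listed at 0 in all 6 eWAT libraries. Neither iWAT group averaged over 1 FPKM of Sln, so it was tested against iWAT only through its BAT level. Its differences from iWAT therefore rest on low iWAT values.

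Of 8 tested genes of mineral and phosphate handling, 2 were higher and 6 lower in BAT than in iWAT in each genotype, with medians of -1.38 in the libraries labelled HuR-FKO and -1.39 in Ctrl, and with median-ratio scaling 2 were higher and 4 lower in the libraries labelled HuR-FKO (median -0.89) and 2 higher and 5 lower in Ctrl (median -0.93). The phosphate importer Slc20a1 was lower (-1.55 in the libraries labelled HuR-FKO and -1.78 in Ctrl), as was Nt5e (-1.88 in the libraries labelled HuR-FKO and -1.86 in Ctrl), an ectonucleotidase. Spp1 was higher in iWAT than in eWAT (3.12 in the libraries labelled HuR-FKO and 2.42 in Ctrl). Of 17 thermogenic genes, 13 were higher in BAT than in iWAT in each genotype, led by Fabp3, a fatty acid binding protein (3.99 in the libraries labelled HuR-FKO and 5.73 in Ctrl). In Ctrl Zfp516 of this list was lower in BAT (-0.76, adjusted p 0.00103 in limma). With median-ratio scaling 15 of the thermogenic genes were higher and 0 lower in each genotype. Against eWAT the higher and lower counts in BAT were 7 and 2 for the creatine list in each genotype. For the calcium list they were 9 and 15 in the libraries labelled HuR-FKO and 12 and 15 in Ctrl, and for the mineral list 2 and 5 in the libraries labelled HuR-FKO and 2 and 4 in Ctrl. With median-ratio scaling they were 9 and 1 for the creatine list in each genotype, 13 and 7 for the calcium list in the libraries labelled HuR-FKO and 14 and 9 in Ctrl, and 2 and 3 for the mineral list in the libraries labelled HuR-FKO and 2 and 2 in Ctrl. Unlike the member counts, these keep genes that averaged at most 1 FPKM in both eWAT groups: Ckm, Sln, Atp2a1, Ryr1, Casq1, Trdn, Hrc and Mrln. Such genes were tested only through another depot where they were higher, which largely fixed their direction against eWAT in advance.

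The genes whose pattern over the 16 libraries came closest to each member were sought by Pearson's r on log2(FPKM + 1), as a description over libraries that share depots. Phospho1 tracked Cycs (cytochrome c, r = 0.991), Ndufv1 (0.987) and Ndufa10 (0.985), and Alpl tracked Uqcc (0.977), Sirt3 (0.974) and Phb (0.971). Ckmt2 tracked Myh1 (0.989), Myot (0.985) and Trim72 (0.984). Gatm tracked Prrx1 (0.981), Cadm3 (0.975) and Fgf7 (0.974), and Gamt tracked Itga7, Myadm and Prkcdbp (0.992 each). For Ckb the closest were Mrps26 (0.934), Atp6v0e (0.919) and Cops6 (0.918), for Atp2a2 Myh7 and Neu2 (0.897 each) and Timmdc1 (0.884), and for Slc6a8 Znrd1as (0.829), Magix (0.805) and Rhpn2 (0.781).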

How the data were processed

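RNA of 16 libraries (each pooled from 3 mice) was sequenced by the authors with a strand-specific kit, paired-end, and aligned to mm10 with TopHat2 2.0.11. The deposited values are FPKM from Cufflinks 2.1.1. The annotation release is not given in the sources used here. The table held 38396 rows and 38371 gene IDs, of which 36573 matched GENCODE vM21, giving 21204 protein-coding rows; 0 other per-sample columns were present. FPKM keep no read totals: depth was estimated from the steps of low values, 55.0 to 79.6% of which were whole within 0.05 on the log2 scale.

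Genes annotated as protein-coding were kept where a compared group averaged over 1 FPKM, and were tested in limma 3.58.1 (R 4.3.3, eBayes with trend) on log2(FPKM + 1), a scale that understates changes of low genes. Adjusted p are Benjamini-Hochberg over all tested genes, threshold 0.05. HuR-FKO and Ctrl were compared within each depot, depots in a fit of 3 groups per genotype, and interactions in a fit of all 16 libraries. Family shares were compared with exact permutation tests. All 10 members are named. Of other lists, up to 5 called genes with the largest difference were eligible, or the 2 with the smallest p, and the text names some of these. The members and lists were chosen with earlier results of these data known. The tests were tried on simulated data. Alternatives were another pseudocount (0.1), no minimum, median-ratio scaling, all genes, no trend, a replicate block, 1 fit of 16 libraries and leaving out each library.

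Among the white fat groups, deviations of same-numbered libraries correlated above all others only for Ctrl iWAT and Ctrl eWAT, at 0.240, 0.276 and 0.192. The block changed no member call there. In BAT, with 2 libraries a group, such values mirror each other, so pairing could not be judged. For HuR-FKO BAT and Ctrl BAT they were 0.367 for same-numbered and -0.367 for other libraries. Promoter sequences are from RefSeq.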

Additional observations from a re-analysis of the deposited data

How the results depend on the processing

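The counts of called members, which against eWAT here include Ckmt2, kept within 1.5 times under another pseudocount, no minimum, median-ratio scaling, all genes and no trend. For HuR-FKO against Ctrl in BAT, 1 member passed with a replicate block (Ckb, adjusted p 0.0436) and in 1 fit of all 16 libraries (Ckb, adjusted p 0.0291). The block also removed the call of Slc6a8 for iWAT against eWAT in the libraries labelled HuR-FKO (adjusted p 0.0632), and changed no other member call. Slc6a8 lost that call also with no minimum (0.0743), median-ratio scaling (0.0551), all genes (0.0733), no trend (0.0510) and 1 fit (0.0628).

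Over all genes, HuR-FKO against Ctrl in BAT gave 6 calls with all genes of the table, 46 with the replicate block and 71 in 1 fit. In iWAT it gave 3 with the pseudocount of 0.1, 0 with no minimum, 3 with scaling, 10 with all genes, 0 with the block and 37 in 1 fit, and in eWAT 2 with no minimum, 3 without a trend, 0 with the block and 28 in 1 fit. The interaction with BAT against iWAT gave 0 (pseudocount), 9 (no minimum), 0 (scaling) and 5 (all genes). That with BAT against eWAT gave 1, 9, 5, 4 and 5 (no trend), and that with iWAT against eWAT 0 (pseudocount), 7 (no minimum), 8 (all genes) and 1 (replicate block). The causes were not tested.

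Median-ratio scaling turned the direction of Slc6a8 for BAT against eWAT, to 0.61 in the libraries labelled HuR-FKO and 0.68 in Ctrl, of Ckb for BAT against iWAT in the libraries labelled HuR-FKO (0.755) and of Alpl for iWAT against eWAT in them (0.0149, and 0.000259 with the pseudocount of 0.1). With Ctrl libraries only, the smallest adjusted p of the shares in the exact test was 0.15. An exact p cannot go below 0.1 with so few libraries, so no share could pass there. The differences in percentage points were 99.8 and 91.6 for Ckmt2, -95.4 and -73.9 for Ckb, -60.7 and -44.2 for Atp2a2 and -18.0 and -16.8 for Ryr2, for BAT and for iWAT against eWAT.

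Leaving out 1 library at a time gave 0 to 1 called members for HuR-FKO against Ctrl in BAT (Ckmt2, without Ctrl BAT replicate 2, in a fit of 2 libraries against 1 where the lone library is assumed to vary like the other group) and 3 to 6 for iWAT against eWAT in the libraries labelled HuR-FKO (3 without HuR-FKO iWAT replicate 2). Over all genes it gave 0 to 136 calls in BAT, 0 to 5 in iWAT and 1 to 6 in eWAT for HuR-FKO against Ctrl, 2377 to 4266 (libraries labelled HuR-FKO) and 2405 to 4021 (Ctrl) for iWAT against eWAT, and 0 to 12, 0 to 7 and 0 to 6 for the interactions. Members without overlap in eWAT numbered 0 to 2, against 20.5 to 27.1% of all tested genes in those settings. Directions between genotypes turned for Gatm (-0.46 to 0.043), Slc6a8 (-0.44 to 0.085) and Phospho1 (-0.40 to 0.22) in BAT, Ckmt2 (-1.33 to 0.0535) in iWAT, and Gamt (-0.088 to 0.15), Slc6a8 (-0.13 to 0.063) and Atp2a2 (-0.084 to 0.0051) in eWAT. Between depots they turned in the libraries labelled HuR-FKO for Ckb (-0.32 to 0.16, BAT against iWAT) and Alpl (-0.15 to 0.11, iWAT against eWAT). In Ctrl they turned for Slc6a8 (-0.059 to 0.47 against iWAT and -0.34 to 0.19 against eWAT) and, for iWAT against eWAT, Alpl (-0.14 to 0.10), Phospho1 (-0.24 to 0.17) and Atp2a2 (-0.055 to 0.034). The Ckb interaction for iWAT against eWAT ranged over -0.043 to 0.34. Share differences for BAT against iWAT ranged over -40.4 to -22.4 points for Ckb and -23.0 to -14.3 for Atp2a2, with exact adjusted p of 0.0286 and 0.0212 without Ctrl iWAT replicate 3, and over -3.26 to -1.38 for Ryr2, with an exact adjusted p of 0.0433 without that library. Gatm lost its call for BAT against eWAT in Ctrl without Ctrl BAT replicate 1 (-0.41, adjusted p 0.116), and Ckb in the libraries labelled HuR-FKO without HuR-FKO BAT replicate 1 (-0.66, adjusted p 0.0650). Depth was only estimated, and depth limits on Ckmt1 and Ryr2 were not computed.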
